A study of Mus musculus with 18 samples.

Results

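The genes described here are 10 members of the NF-kB pathway and its feedback loops: *Nfkbia*, *Nfkbiz*, *Tnfaip3*, *Nfkb1*, *Nfkb2*, *Relb*, *Birc3*, *Icam1*, *Socs3* and *Tnf*. They were taken by name from the 17204 genes of the array table, each as 1 Ensembl gene identifier, and all 10 passed the filter on low values. Brunner's glands lie in the wall of the duodenum and secrete mucus, and they were isolated here by laser capture. The 18 arrays came from individual male CD-1 mice in 6 groups of 3. Those groups were GLP-1R-/- mice untreated, GLP-1R-/- mice 6 h and 18 h after dosing with exendin-4, wild-type mice untreated, and wild-type mice 6 h and 18 h after exendin-4. The peptide exendin-4 activates GLP-1R, the receptor for the gut hormone glucagon-like peptide-1, and GLP-1R-/- mice lack that receptor. No source used here gives the dose, the age of the mice or how the receptor gene was deleted. The labels name no vehicle group, so injection and collection time cannot be told apart from the agonist within a genotype.

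NF-kB is a family of transcription factors that form dimers and are held in the cytoplasm by inhibitor proteins until a receptor signal removes the inhibitor. In the canonical arm the inhibitor IkB-alpha, made from *Nfkbia*, is degraded and releases dimers that contain the product of *Nfkb1*. In the non-canonical arm the precursor made from *Nfkb2* is cut to its active form, which pairs with the product of *Relb*. Many inhibitors and regulators of the pathway are themselves transcribed in response to NF-kB, which closes feedback loops, and in the gut wall the pathway is known for its part in responses to microbes and cytokines.

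Sequence just upstream of the transcription start is shown for those members that passed the test in at least 1 comparison and are held in the RefSeq promoter table of GRCm38.p6. That table held 7 of the 10 members, and *Relb*, *Nfkb1* and *Nfkbiz* are named only. Each stretch covers 150 bases, from -150 to -1 relative to the most 5′ transcription start in the table, 5′ to 3′ on the gene's strand. Capitals mark the kB consensus, the DNA motif that NF-kB dimers bind, in the first 3 genes, and the motif TTCNNNGAA, a form bound by STAT factors, in *Icam1*.
Nfkb2, chr19:46304587-46304736, plus strand: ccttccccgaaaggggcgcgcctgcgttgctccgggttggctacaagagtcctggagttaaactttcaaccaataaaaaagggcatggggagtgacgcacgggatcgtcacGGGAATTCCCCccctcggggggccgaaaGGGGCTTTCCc
Tnfaip3, chr10:19015411-19015560, minus strand: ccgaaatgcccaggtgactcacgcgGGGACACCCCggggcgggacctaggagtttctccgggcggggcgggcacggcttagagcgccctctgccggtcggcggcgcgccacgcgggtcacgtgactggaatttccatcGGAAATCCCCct
Nfkbia, chr12:55492648-55492797, minus strand: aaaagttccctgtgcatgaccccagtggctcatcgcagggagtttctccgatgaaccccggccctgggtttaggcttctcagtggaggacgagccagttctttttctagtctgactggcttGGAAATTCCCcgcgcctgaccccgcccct
Icam1, chr9:21015790-21015939, plus strand: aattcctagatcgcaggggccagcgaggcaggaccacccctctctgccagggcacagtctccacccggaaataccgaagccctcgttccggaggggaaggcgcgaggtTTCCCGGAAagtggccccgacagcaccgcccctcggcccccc
Positions given beside gene identifiers are those of the whole gene in GRCm38.p6. The window of *Nfkb2* lies inside its annotated gene span, which begins further upstream than the starts in the table, and the other 3 windows end where the gene begins. Over the 250 bases upstream and on either strand, the kB consensus was found in 3 of the 7 members, *Nfkb2*, *Tnfaip3* and *Nfkbia*, and in 3.9% of all 32851 promoters. *Nfkb2* and *Tnfaip3* have 3 and 2 starts in the table. A member was counted if any of its starts had a match, while the shares over all promoters count each start by itself. Relative to the first start of *Nfkb2*, 2 of its matches overlap each other between -39 and -29, and another lies from -11 to -2. TTCNNNGAA was found in *Icam1*, *Socs3* and *Nfkb2*, and in 7.02% of all promoters; in *Nfkb2* it lies from -148 to -140, apart from the kB matches. TGACGTCA, a site for cAMP-responsive factors, was found in none of the 7 and in 1.55% of all promoters. At so low a share its absence from 7 genes says little, and shorter forms of the site were not searched. These matches are letters in a window and not measured sites.

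Signals are RMA values on the log2 scale, and a difference of 1 on that scale is 2-fold. A gene was called when its adjusted p was under 0.05 in limma, adjusted over the 12775 genes tested. Array medians lay between 5.88 and 6.11. Replicate 13 of the GLP-1R-/- 6 h group stood apart from the other arrays: it correlated with them between 0.945 and 0.966, against 0.970 to 0.995 among the rest, so values that rest on it are given with and without it. Identifiers of the receptor gene, of the other genes of the pathway and of cell type markers are not paired with names in the sources used here, so the genotype, the tissue label and the cell makeup of the captured glands were not analysed here.

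The clearest pattern belonged to the non-canonical subunits: in wild-type glands *Nfkb2* and *Relb* were lower at 18 h than at 6 h. In GLP-1R-/- glands neither passed the test in any comparison of times, where limma called 0% of tested genes in each. *Nfkb2* (ENSMUSG00000025225_at, chr19:46300994-46312400) encodes the precursor whose processed form is the DNA-binding partner of RelB, and unprocessed it acts as an inhibitor. In GLP-1R-/- glands *Nfkb2* signals were 6.66, 7.10 and 7.17 untreated, 7.31, 7.16 and 7.16 at 6 h, and 7.29, 7.38 and 7.35 at 18 h. Wild-type values were 7.07, 6.72 and 7.32 untreated, 7.82, 7.66 and 8.61 at 6 h, and 6.30, 7.004 and 7.01 at 18 h. The wild-type 6 h arrays were the 3 highest of all 18, and none of them overlapped any other group. *Nfkb2* averaged 8.03 ± 0.51 in wild-type glands at 6 h and 7.04 ± 0.30 in untreated ones (SD, n = 3 each), a rise of 1.99-fold, with a log2 difference of 0.996 (SE 0.24, limma adjusted p = 0.0277). At 18 h it was 6.77 ± 0.41 (SD, n = 3), 2.40-fold below the 6 h level, a log2 difference of -1.26 (SE 0.24, limma adjusted p = 0.00222). Against untreated wild-type glands the 18 h difference was -0.26 (95% confidence interval -0.76 to 0.23, limma adjusted p = 0.834). Of the 18 h arrays, replicates 11 and 12 lay within the range of the untreated wild-type arrays, and replicate 10 lay below it. The call between 18 h and 6 h held under all 13 alternatives. The call at 6 h was lost without untreated replicate 1 (log2 difference 1.01, adjusted p = 0.085) or 2 (0.84, adjusted p = 0.125), without 6 h replicate 7 (1.10, adjusted p = 0.0503) or 9 (0.71, adjusted p = 0.15), and with the fit restricted to the groups compared (adjusted p = 0.0884).

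*Relb* (ENSMUSG00000002983_at, chr7:19606217-19629438) encodes the subunit that pairs with the processed *Nfkb2* product. Knockout (GLP-1R-/-) signals were 6.11, 6.61 and 6.07 untreated, 5.75, 6.36 and 6.51 at 6 h, and 6.66, 6.48 and 6.67 at 18 h. Those of wild-type glands were 5.81, 6.27 and 6.69 untreated, 6.70, 6.90 and 7.44 at 6 h, and 5.46, 5.45 and 5.77 at 18 h. Every wild-type 6 h array again lay above every array of the other groups, while the lowest of the knockout values at 6 h came from replicate 13. The wild-type 18 h level of 5.56 ± 0.18 was 2.74-fold below the 6 h level of 7.01 ± 0.38 (SD, n = 3 each), a log2 difference of -1.45 (SE 0.24, limma adjusted p = 0.00093). This was the largest fold change among the members in any comparison of 2 groups, and its call held under all 13 alternatives. Against untreated wild-type glands, at 6.26 ± 0.44 (SD, n = 3), neither time passed the test: the 6 h difference was 0.76 (SE 0.24, limma adjusted p = 0.108), and the 18 h difference was -0.70 (SE 0.24, limma adjusted p = 0.382). In both of these the groups did not overlap, at 6 h by a narrow margin (lowest 6 h array 6.698, highest untreated array 6.691). The 6 h difference passed in 2 of 13 alternatives. These were without untreated replicate 19 (0.97, adjusted p = 0.0476) and with replicate 13 left out of the shared spread (0.76, adjusted p = 0.0449). It was 0.53 without untreated replicate 1 (adjusted p = 0.452) and 0.54 without 6 h replicate 9 (adjusted p = 0.433).

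*Nfkb1* (ENSMUSG00000028163_at, chr3:135584655-135691969), which encodes the precursor of a canonical subunit, was called in no comparison. GLP-1R-/- glands gave signals of 8.66, 8.61 and 8.65 untreated, 7.66, 8.61 and 8.44 at 6 h, and 8.59, 8.47 and 8.63 at 18 h. In wild-type glands they were 8.01, 8.26 and 8.38 untreated, 8.28, 8.40 and 8.42 at 6 h, and 8.24, 8.06 and 8.24 at 18 h. The 3 untreated knockout arrays lay above the 3 untreated wild-type arrays, by 0.42 on average (SE 0.18, limma adjusted p = 0.561), where 7.77% of tested genes did so. With replicate 13 left out of the shared spread the SE was 0.11 and the limma adjusted p 0.069. At 18 h the knockout arrays also lay above the wild-type ones, by 0.38, where 12.4% of tested genes did so. The limma adjusted p was 0.414 there, and 0.0604 without replicate 13. The lowest value of all 18 was that of replicate 13, and the knockout difference between 6 h and untreated glands was -0.40 with that array and -0.11 without it (limma adjusted p = 0.595 and 0.951).

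**Figure D1:**
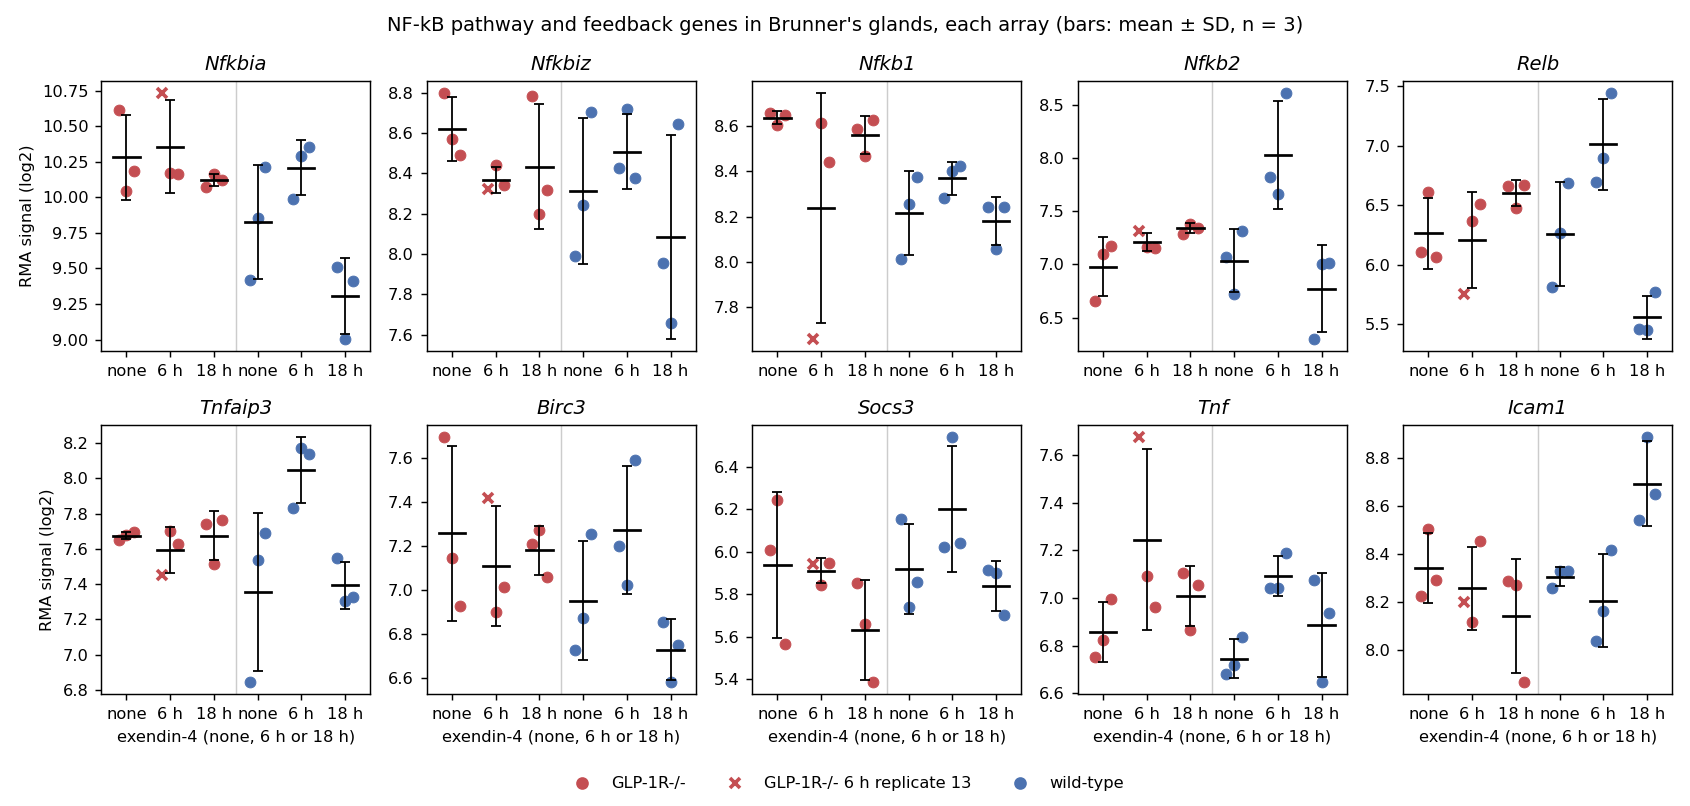
RMA signal (log2) of each member on each of the 18 arrays, with GLP-1R-/- groups in red on the left and wild-type groups in blue on the right of each panel, untreated (none), 6 h and 18 h after exendin-4; horizontal lines and bars are the mean ± SD of 3 arrays and the cross is replicate 13. In wild-type glands Nfkb2 and Relb stood highest at 6 h (means 8.03 and 7.01) and had their lowest means at 18 h (6.77 and 5.56), while Icam1 was highest at 18 h (8.69). The 18 h mean of Nfkb2 includes replicate 10 at 6.30, with the other arrays within the untreated range.

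*Nfkbia* (ENSMUSG00000021025_at, chr12:55489409-55492647) encodes IkB-alpha, the fast-acting inhibitor that is itself an NF-kB target. Its signals in GLP-1R-/- glands were 10.61, 10.04 and 10.18 untreated, 10.73, 10.17 and 10.16 at 6 h, and 10.08, 10.16 and 10.12 at 18 h. Wild-type values were 9.42, 9.86 and 10.21 untreated, 9.99, 10.29 and 10.35 at 6 h, and 9.51, 9.01 and 9.41 at 18 h. The wild-type 18 h arrays all lay below the wild-type 6 h arrays, while the untreated wild-type arrays overlapped both groups. *Nfkbia* was 1.87-fold lower at 18 h than at 6 h in wild-type glands, at 9.31 ± 0.27 against 10.21 ± 0.20 (SD, n = 3 each), a log2 difference of -0.90 (SE 0.21, limma adjusted p = 0.0108). That call was lost without 18 h replicate 11 (-0.75, adjusted p = 0.0592) or 6 h replicate 9 (-0.83, adjusted p = 0.0522). Against untreated wild-type glands the difference at 18 h was -0.52 (SE 0.21, limma adjusted p = 0.484), and -0.71 with array weights (adjusted p = 0.0421). It was -0.33 without untreated replicate 19 (adjusted p = 0.854).

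*Nfkbiz* (ENSMUSG00000035356_at, chr16:55811375-55838954) encodes IkB-zeta, a nuclear member of the inhibitor family that acts as a cofactor at a subset of NF-kB targets. It was called in no comparison. Its signals ranged from 8.20 to 8.80 over the GLP-1R-/- arrays and from 7.66 to 8.72 over the wild-type arrays, with the widest group spread at 18 h in wild-type glands (8.09 ± 0.51, SD, n = 3). Its wild-type difference between 18 h and 6 h had the same sign as that of *Nfkbia*, at -0.42 (SE 0.23, limma adjusted p = 0.276).

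Among the feedback regulators, *Tnfaip3* (ENSMUSG00000019850_at, chr10:19000910-19015410) encodes a ubiquitin-editing enzyme that shuts off signalling from receptors to NF-kB. GLP-1R-/- glands gave signals of 7.65, 7.68 and 7.69 untreated, 7.45, 7.70 and 7.63 at 6 h, and 7.74, 7.51 and 7.77 at 18 h. Those of wild-type glands were 6.84, 7.53 and 7.69 untreated, 7.83, 8.17 and 8.14 at 6 h, and 7.55, 7.31 and 7.33 at 18 h. Here too the 3 wild-type 6 h arrays were the highest of all 18, and untreated replicate 1 was the lowest. *Tnfaip3* rose 1.62-fold to 8.05 ± 0.19 at 6 h in wild-type glands, against 7.36 ± 0.45 in untreated ones (SD, n = 3 each), a log2 difference of 0.69 (SE 0.18, limma adjusted p = 0.0391). At 18 h it was 1.57-fold below the 6 h level, a log2 difference of -0.65 (SE 0.18, limma adjusted p = 0.0228). The rise at 6 h rested on untreated replicate 1, without which it was 0.44 (adjusted p = 0.176), and was also lost without untreated replicate 2 (0.78, adjusted p = 0.0557), without 6 h replicate 7 (0.80, adjusted p = 0.0511), 8 (0.63, adjusted p = 0.116) or 9 (0.64, adjusted p = 0.157) and with the fit restricted to the groups compared (adjusted p = 0.145). The difference between the times was lost without 18 h replicate 11 (-0.61, adjusted p = 0.0809) or 12 (-0.62, adjusted p = 0.0695) and without 6 h replicate 8 (-0.59, adjusted p = 0.0784) or 9 (-0.61, adjusted p = 0.0915).

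*Birc3* (ENSMUSG00000032000_at, chr9:7847468-7873205) encodes a ubiquitin ligase of the inhibitor of apoptosis family that acts in both NF-kB arms. Knockout (GLP-1R-/-) signals were 7.69, 7.15 and 6.93 untreated, 7.42, 6.90 and 7.01 at 6 h, and 7.21, 7.27 and 7.06 at 18 h. In wild-type glands they were 6.73, 6.87 and 7.25 untreated, 7.20, 7.02 and 7.59 at 6 h, and 6.86, 6.58 and 6.75 at 18 h. The wild-type 18 h arrays all lay below the 6 h arrays, by 0.54 on average, which did not pass the test (SE 0.20, limma adjusted p = 0.103). Of 13 alternatives only array weights passed (adjusted p = 0.00636), and without 6 h replicate 9 the difference was -0.38 (adjusted p = 0.381). *Socs3* (ENSMUSG00000053113_at, chr11:117966079-117970336) encodes an inhibitor of cytokine signalling through JAK and STAT3, a pathway that runs beside NF-kB. Its wild-type 18 h arrays, at 5.91, 5.90 and 5.70, likewise lay below the 6 h arrays, at 6.02, 6.54 and 6.04, with a difference of -0.36 (SE 0.18, limma adjusted p = 0.241). Untreated wild-type arrays were at 6.15, 5.74 and 5.86. In GLP-1R-/- glands the *Socs3* mean was 5.94 untreated, 5.91 at 6 h and 5.63 at 18 h. The knockout difference between 18 h and 6 h was -0.28 (SE 0.18, limma adjusted p = 0.647), of the same sign as in wild-type glands. No comparison called *Birc3* or *Socs3*.

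*Tnf* (ENSMUSG00000024401_at, chr17:35199367-35202007) encodes the cytokine tumour necrosis factor, an activator of the canonical arm and an NF-kB target. Its signals in GLP-1R-/- glands were 6.75, 6.83 and 6.99 untreated, 7.68, 7.09 and 6.96 at 6 h, and 7.11, 6.87 and 7.05 at 18 h. Wild-type values were 6.68, 6.72 and 6.84 untreated, 7.04, 7.04 and 7.19 at 6 h, and 7.08, 6.65 and 6.94 at 18 h. The 6 h wild-type arrays did not overlap the untreated ones, with a difference of 0.35 that did not pass the test (SE 0.16, limma adjusted p = 0.34). In GLP-1R-/- glands the 6 h difference from untreated was 0.39 (SE 0.16, limma adjusted p = 0.595), and 0.17 without replicate 13, whose *Tnf* value was the highest of the 18.

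*Icam1* (ENSMUSG00000037405_at, chr9:21015940-21028814) encodes an adhesion molecule that binds leukocyte integrins and is a target of NF-kB and of STAT factors. In wild-type glands it was the 1 member of the 10 with a higher mean at 18 h than at 6 h. Knockout (GLP-1R-/-) signals were 8.22, 8.50 and 8.29 untreated, 8.20, 8.12 and 8.45 at 6 h, and 8.29, 8.27 and 7.87 at 18 h. Those of wild-type glands were 8.26, 8.33 and 8.33 untreated, 8.04, 8.16 and 8.42 at 6 h, and 8.54, 8.89 and 8.65 at 18 h. The 3 wild-type 18 h arrays were the highest of all 18. *Icam1* was 1.40-fold higher at 18 h than at 6 h in wild-type glands, at 8.69 ± 0.18 against 8.21 ± 0.19 (SD, n = 3 each), a log2 difference of 0.49 (SE 0.15, limma adjusted p = 0.042). The call was lost with each array centred on its median (0.43, adjusted p = 0.0934), with the fit restricted to the groups compared (adjusted p = 0.0605) and with a robust variance prior (adjusted p = 0.0524). It was also lost without 18 h replicate 10 (0.56, adjusted p = 0.0516), 11 (0.39, adjusted p = 0.173) or 12 (0.51, adjusted p = 0.0774) and without 6 h replicate 7 (0.40, adjusted p = 0.177) or 8 (0.46, adjusted p = 0.108). Against untreated wild-type glands the 18 h difference was 0.39 (SE 0.15, limma adjusted p = 0.436). In captured tissue of this kind, a change in the share of cells that carry a transcript and a change in its amount per cell cannot be told apart.

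Counted over the list, wild-type glands at 6 h had 2 of 10 members called against untreated glands, both higher, where 1.93% of all tested genes were called higher. The members had a median log2 difference of 0.33, against 0.022 over all tested genes. Untreated replicate 1, the lowest of its group for 8 of the 10 members, enters this median. Groups did not overlap for *Tnfaip3*, *Nfkb2*, *Relb* and *Tnf*, all 4 higher at 6 h, where 13.7% of tested genes did so. At 18 h against untreated 0 members were called, where limma called 0.196% of tested genes, and 3 had an unadjusted p under 0.05 (*Nfkbia*, *Relb* and *Icam1*), where 8.4% of tested genes did. The median of the 10 members was -0.15 there, against 0.037 over all tested genes. The groups did not overlap for *Icam1*, higher at 18 h like 10.3% of tested genes, and for *Relb*, lower like 6.18%. Between 18 h and 6 h 5 members were called. *Nfkbia*, *Tnfaip3*, *Nfkb2* and *Relb* were lower, where 6.05% of tested genes were called lower, and *Icam1* was higher, where 4.82% were called higher. The median of the 10 was -0.48, against 0.027 over all tested genes, and 7 members had all 18 h arrays below all 6 h arrays, where 17.4% of tested genes did. *Icam1* had all of them above, as did 18.3% of tested genes. These comparisons share arrays: the untreated arrays enter both contrasts against untreated glands and the 6 h arrays enter 2 of the 3.

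**Figure D2:**
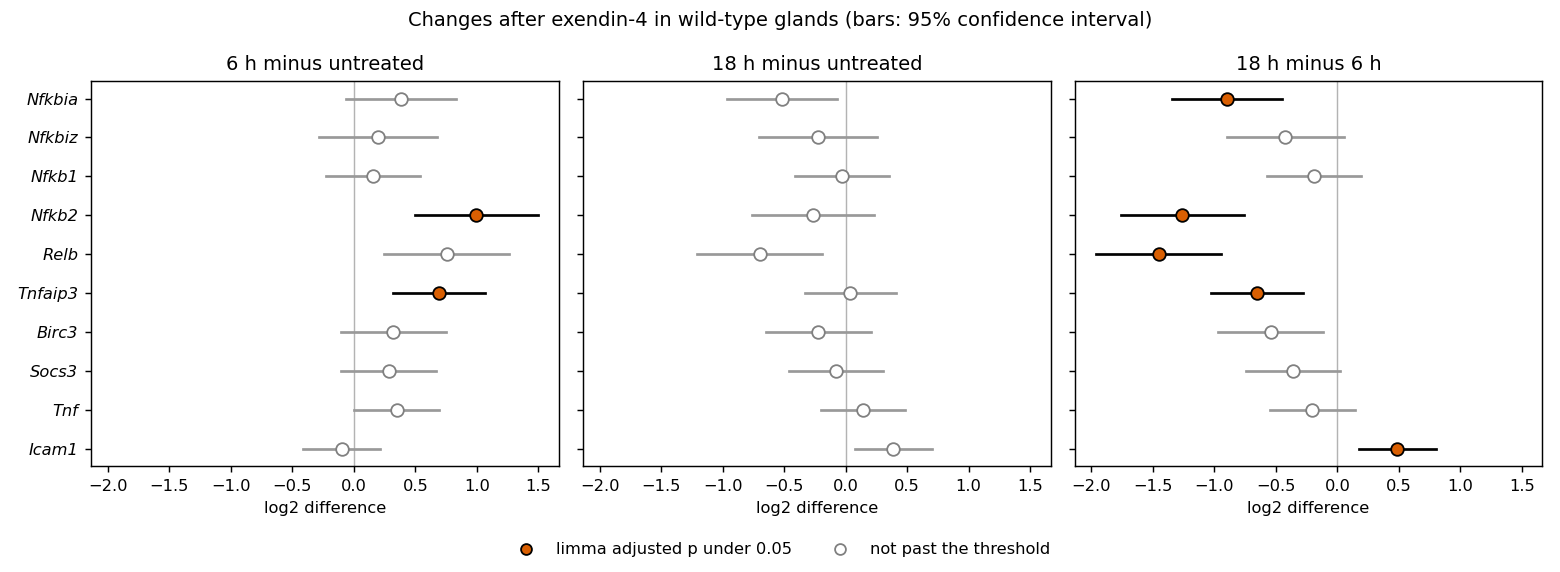
Log2 differences of the members in wild-type glands for 6 h minus untreated, 18 h minus untreated and 18 h minus 6 h; points are limma estimates, bars 95% confidence intervals, and filled points have an adjusted p under 0.05. Nfkb2 and Tnfaip3 were called at 6 h (0.996 and 0.69), no member at 18 h, and 5 between the times, from -1.45 for Relb to 0.49 for Icam1.

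In GLP-1R-/- glands none of the members was called: 0 at 6 h and 0 at 18 h against untreated glands, and 0 between 18 h and 6 h, where limma called 0% of tested genes in each. At an unadjusted p under 0.05 there were 2 members at 6 h, *Nfkb1* and *Tnf*, and 0 in each of the other comparisons, against 8.13%, 5.14% and 8.93% of tested genes in the order given. All 6 h arrays lay below the untreated ones for *Nfkbiz* (3.9% of tested genes), all 18 h arrays above them for *Nfkb2* (9.21%), and all 18 h arrays below the 6 h arrays for *Nfkbia* (7.77%). Of the 6 h arrays, replicate 13 had the lowest *Nfkb1* and the highest *Tnf* value. The smallest adjusted p among the members was 0.595 at 6 h, 0.991 at 18 h and 0.604 between the times. Intervals were not narrow: for *Nfkb2* at 6 h the difference was 0.24 (95% confidence interval -0.26 to 0.73) and for *Relb* -0.054 (-0.56 to 0.46). Without replicate 13 the 6 h differences were 0.19 for *Nfkb2* and 0.17 for *Relb*.

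At matched times, limma called *Nfkb2* lower in GLP-1R-/- than in wild-type glands at 6 h and *Relb* higher at 18 h. Neither call was stable when single arrays were left out, and in untreated glands neither gene passed the test. The wild-type arrays here are those of the time comparisons above. At 6 h *Nfkb2* averaged 7.21 ± 0.087 in GLP-1R-/- and 8.03 ± 0.51 in wild-type glands (SD, n = 3 each), a log2 difference of -0.82 (SE 0.24, limma adjusted p = 0.0487). It was the 1 member called at 6 h, where 6.07% of tested genes were called. *Relb* differed by -0.80 (SE 0.24, limma adjusted p = 0.0583) and *Tnfaip3* by -0.45 (SE 0.18, limma adjusted p = 0.138). Without replicate 13 these were -0.58 (adjusted p = 0.188) and -0.38 (adjusted p = 0.283), and with array weights -0.53 (adjusted p = 0.0551) and -0.29 (adjusted p = 0.137). Groups did not overlap for these 3 and *Socs3*, all 4 lower in GLP-1R-/- glands, where 11.3% of tested genes did so. The *Nfkb2* call was lost without replicate 13 (-0.87, adjusted p = 0.0634), 14 (-0.80, adjusted p = 0.0786) or 15 (-0.80, adjusted p = 0.0779) of the knockouts, without wild-type replicate 7 (-0.93, adjusted p = 0.0742) or 9 (-0.53, adjusted p = 0.213), with no filter (adjusted p = 0.0581) and with the fit restricted to the groups compared (adjusted p = 0.225). The *Relb* difference passed without knockout replicate 15 (-0.95, adjusted p = 0.0393).

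At 18 h *Relb* averaged 6.60 ± 0.11 in GLP-1R-/- and 5.56 ± 0.18 in wild-type glands (SD, n = 3 each). It was 2.07-fold higher in the knockouts, with a log2 difference of 1.05 (SE 0.24, limma adjusted p = 0.0403), and the 1 member called at 18 h, where 1.27% of tested genes were called. *Nfkbia* was higher by 0.81 (SE 0.21, limma adjusted p = 0.0768), at 10.12 ± 0.042 against 9.31 ± 0.27, and *Icam1* differed by -0.55 (SE 0.15, limma adjusted p = 0.0826), at 8.14 ± 0.24 against 8.69 ± 0.18 (SD, n = 3 each). With replicate 13 left out of the shared spread these passed too, at adjusted p = 0.0285 and 0.0455. Of 13 alternatives, *Nfkbia* passed in 3 and *Icam1* in 2, and neither passed when any 1 array of these groups was left out. Without wild-type replicate 11 *Nfkbia* differed by 0.66 (adjusted p = 0.307). Without knockout replicate 18 *Icam1* differed by -0.41 (adjusted p = 0.41). All GLP-1R-/- arrays lay above all wild-type arrays for *Nfkbia*, *Nfkb1*, *Nfkb2*, *Relb* and *Birc3*, 5 members where 12.4% of tested genes did so, and below them for *Icam1*, where 11.5% did. The *Nfkb2* difference was 0.57 (limma adjusted p = 0.318), and 0.33 without wild-type replicate 10 (adjusted p = 0.755). The *Relb* difference stayed between 0.99 and 1.15 when any 1 array of these groups was left out, but the call was then lost each time: without wild-type replicate 10 (adjusted p = 0.123), 11 (0.167) or 12 (0.0555) and without knockout replicate 16 (0.125), 17 (0.0996) or 18 (0.167). It was also lost with no filter (adjusted p = 0.0501) and with each array centred on its median (1.07, adjusted p = 0.0638).

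Between untreated glands of the genotypes 0 members were called, where limma called 0.618% of tested genes, and 2 members had an unadjusted p under 0.05, where 7.53% of tested genes did. These were *Nfkbia*, with a difference of 0.45 (95% confidence interval 0.0058 to 0.90, limma adjusted p = 0.644), and *Nfkb1*, given above. The *Nfkbia* difference was 0.25 without wild-type replicate 1 and 0.28 without knockout replicate 4. The difference was -0.060 for *Nfkb2* (95% confidence interval -0.56 to 0.44) and 0.0042 for *Relb* (-0.51 to 0.51). Over the 10 members the median difference between genotypes was 0.21 in untreated glands, -0.15 at 6 h and 0.36 at 18 h. Over all tested genes these medians were 0.021, 0.047 and 0.0073.

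**Figure D3:**
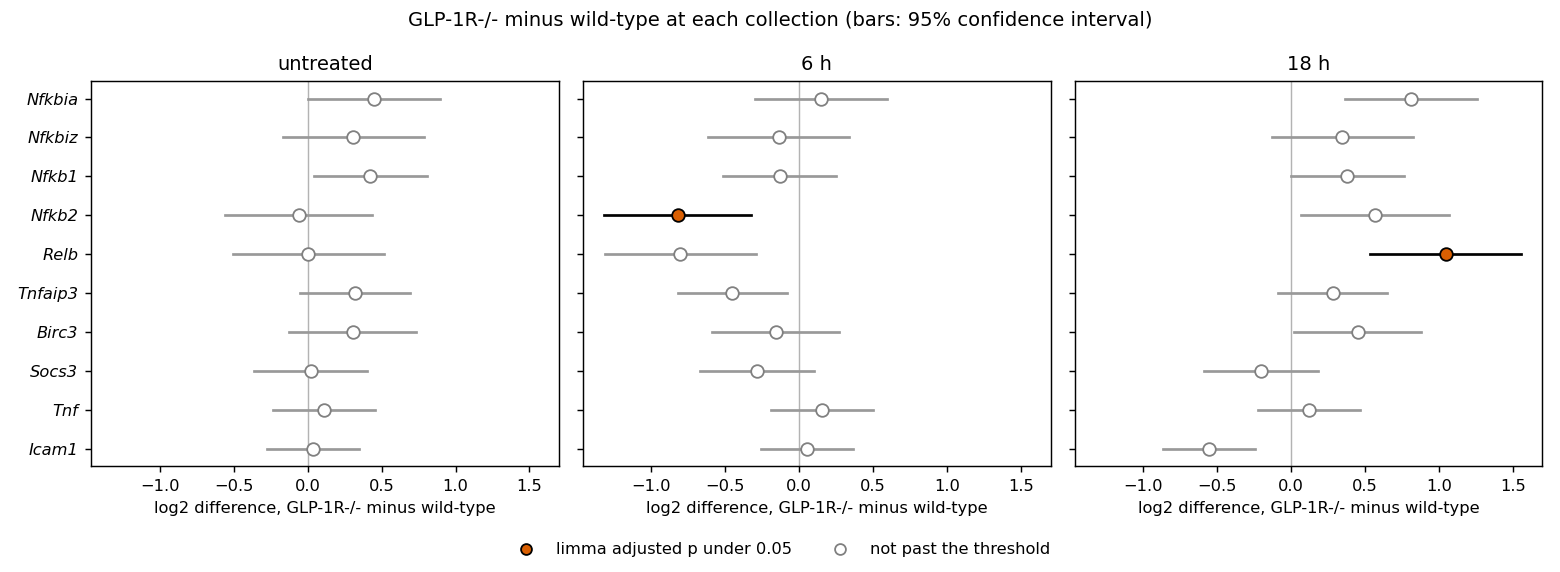
GLP-1R-/- minus wild-type log2 difference of each member in untreated glands, at 6 h and at 18 h; points are limma estimates, bars 95% confidence intervals, and filled points have an adjusted p under 0.05. Relb and Nfkb2 lay near 0 untreated (0.0042 and -0.060), below it at 6 h (-0.80 and -0.82) and above it at 18 h (1.05 and 0.57).

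Whether the change from 6 h to 18 h differed between genotypes was tested directly, in a contrast added with results of these data known. For *Relb* the 18 h against 6 h difference was 0.40 in GLP-1R-/- and -1.45 in wild-type glands, and the knockout change exceeded the wild-type one by 1.85 (95% confidence interval 1.13 to 2.57, limma adjusted p = 0.0119). For *Nfkb2* it was 0.13 in GLP-1R-/- and -1.26 in wild-type glands, which differ by 1.39 (95% confidence interval 0.68 to 2.09, limma adjusted p = 0.0471). These were the 2 members called, both higher, where 1.54% of tested genes were called, 0.885% higher. The *Relb* call held without any 1 of the 12 arrays compared, with adjusted p between 0.0112 and 0.0361, and without replicate 13 the value was 1.62, with 0.17 in place of 0.40 as the knockout change. The *Nfkb2* call held in 2 of those 12 refits, without replicate 13 (1.44, adjusted p = 0.0452) or wild-type 6 h replicate 8 (1.57, adjusted p = 0.0308). In the other 10 it was lost, with adjusted p between 0.051 (without wild-type 18 h replicate 12) and 0.108 (without knockout 18 h replicate 17), and values between 1.10 and 1.51. Those 10 arrays were wild-type replicates 7, 9, 10, 11 and 12 and knockout replicates 14, 15, 16, 17 and 18.

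Tested against the untreated glands of each genotype, the interaction called 0 members at either time, where limma called 0.376% of tested genes at 6 h and 0.0235% at 18 h. At 6 h 4 members had an unadjusted p under 0.05, where 10.3% of tested genes did, and in all 4 the knockout change was the lower. They were *Tnfaip3* at -0.77 (SE 0.25, limma adjusted p = 0.238), *Relb* at -0.81 (SE 0.34, adjusted p = 0.42), *Nfkb2* at -0.76 (SE 0.33, adjusted p = 0.443) and *Nfkb1* at -0.55 (SE 0.26, adjusted p = 0.47). Without replicate 13 they were -0.70 for *Tnfaip3*, -0.58 for *Relb*, -0.81 for *Nfkb2* and -0.27 for *Nfkb1*. Without wild-type 6 h replicate 9 the *Nfkb2* value was -0.47 (adjusted p = 0.684). Array weights gave -0.51 for *Tnfaip3* and -0.17 for *Nfkb1*. At 18 h there were 2, where 4.7% of tested genes passed so, *Relb* at 1.04 (SE 0.34, limma adjusted p = 0.802) and *Icam1* at -0.59 (SE 0.21, adjusted p = 0.861).

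**Figure D4:**
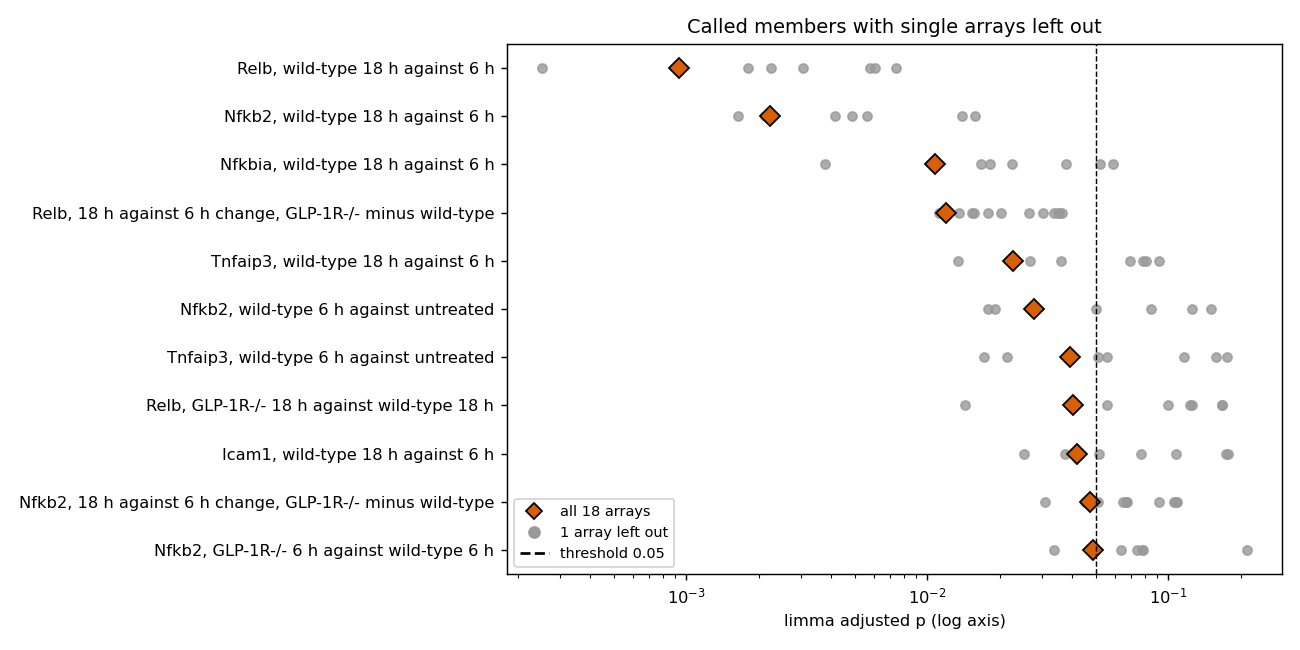
Limma adjusted p (log axis) of each member and comparison that was called, with all 18 arrays (diamonds) and with 1 array left out (grey points); the dashed line is the threshold of 0.05. For Relb and Nfkb2 between 18 h and 6 h in wild-type glands every point lies below the threshold, up to 0.00742 and 0.0158, as does that for the genotype difference of Relb in this change, up to 0.0361. Each of the other calls has points on both sides.

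In the order of the 6 group means, the wild-type 6 h group was highest for 5 members, *Nfkb2*, *Relb*, *Tnfaip3*, *Birc3* and *Socs3*, and for 23.2% of tested genes. The wild-type 18 h group was lowest for 6, *Nfkbia*, *Nfkbiz*, *Nfkb1*, *Nfkb2*, *Relb* and *Birc3*, and for 18.0% of tested genes. For *Nfkb2* this place rested on replicate 10 (6.30), since replicates 11 and 12 (7.004 and 7.01) lay above the untreated knockout mean of 6.98. Of the 50 pairs of neighbours in these orders 45 had overlapping arrays. The 5 that did not were the wild-type 6 h group above the next for *Nfkb2*, *Relb* and *Tnfaip3*, the wild-type 18 h group above the next for *Icam1*, and the GLP-1R-/- 18 h group above the wild-type 6 h group for *Nfkb1*. Over all tested genes 5.25% of such pairs did not overlap.

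Within groups, some arrays held the same rank over most members. Wild-type untreated replicate 1 was the lowest of its group for 8 of the 10 members and for 50.6% of tested genes, and replicate 19 the highest for 9 members and 38.3% of tested genes. At 6 h replicate 9 was the highest of the wild-type group for 7 members and 33.7% of tested genes, and at 18 h replicate 11 was the lowest for 7 and for 30.1%. Their part in the results was not tested beyond leaving each array out.

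As a measure of likeness, Pearson's r was taken across the 18 arrays, which share groups and normalisation. *Nfkbia* and *Birc3* were the most alike pair (r = 0.83, 0.82 without replicate 13, and 0.79 for deviations from the group means). Among 12774 genes *Birc3* held place 7 in likeness to *Nfkbia*, and *Nfkbia* place 3 in likeness to *Birc3*. *Relb* had r = 0.77 with *Tnfaip3* (0.77 without replicate 13, 0.66 for deviations) and 0.77 with *Nfkb2* (0.81 without it, 0.41 for deviations). Many other genes were more alike to these: *Relb* held place 61 in likeness to *Tnfaip3* and 103 in likeness to *Nfkb2*. In likeness to *Relb*, *Tnfaip3* held place 118 and *Nfkb2* place 132. *Icam1* had a negative r with 8 of its 9 partners, down to -0.61 with *Nfkbia*, and with the same number without replicate 13. For deviations from the group means 4 of the 9 were negative, with -0.19 for *Nfkbia*, 0.48 for *Nfkb2* and 0.42 for *Relb*. Of the other 36 pairs 3 were negative, and 2 without replicate 13. For deviations more of these pairs were negative, such as *Tnfaip3* with *Nfkb2* (-0.067) and *Nfkb2* with *Socs3* (-0.29). They ranged from -0.48 (*Nfkb1* with *Tnf*) to 0.79, so a negative r within groups was not particular to *Icam1*. Replicate 13 turned the r of *Nfkb1* with *Tnf*, which was -0.27 with it and 0.44 without it. The r of *Nfkb1* with *Nfkbia* was 0.27 with it and 0.81 without it. Outside the list the most similar gene to *Nfkb2* was ENSMUSG00000036114 (r = 0.93) and that to *Relb* was ENSMUSG00000020741 (r = 0.92); no source used here pairs these identifiers with names.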

How the data were processed

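Total RNA of laser-captured glands was hybridised to Affymetrix arrays, 1 per mouse, after in vitro transcription, per the labels' protocols. RMA, of no stated version, gave the deposited log2 values, per the submitters' processing notes. It corrects background, normalises between arrays and summarises probes, which compresses differences of dim genes and gives no detection call. No source used here gives the array model or the probe definition. For arrays, their number limits the precision.

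Genes with at least 3 of 18 arrays above 4.79, the 30th percentile of all values, were tested. Group means of the 18 arrays were compared by contrasts in limma 3.58.1 (lmFit and eBayes, R 4.3.3), and the code was checked on simulated data. P-values are two-sided with Benjamini-Hochberg adjustment over all 12775 tested genes. Groups follow the titles, whose numbers do not pair arrays. Gene symbols come from the definition of the list, and all 10 members are named by rule. The contrast of the 18 h against 6 h change between genotypes was added after seeing the data. The named gene lists, the receptor gene and the cell type markers could not be matched to identifiers and were not analysed here. Members, lists and promoter motifs were chosen with earlier results of these data known. Alternatives were no filter, a stricter filter, median centring, array weights, a trended robust prior, the fit restricted to the groups compared and each array left out.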

Additional observations from a re-analysis of the deposited data

Results flagged for a closer look

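A pair of members passed the limma test of whether the change between 6 h and 18 h differed between genotypes. For *Relb* the 18 h against 6 h difference in GLP-1R-/- glands exceeded that in wild-type glands by a log2 difference of 1.85 (SE 0.34). Its limma adjusted p was 0.0119, and lay between 0.000826 and 0.0361 over the alternatives. For *Nfkb2* it did so by 1.39 (SE 0.33). Its limma adjusted p was 0.0471, and lay between 0.00553 and 0.108 over the alternatives, with the call lost in 12 of 18. This contrast was added with results of these data known, so its p-values come from the arrays in which the pattern was seen. The interactions against untreated glands called 0 members at 6 h and 0 at 18 h.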

How the results depend on the processing

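For the 37 member results with an unadjusted p under 0.05, chosen so after the fit, 471 of 538 refits kept direction and side of the threshold, 52 lost the call, 15 gained it and 0 reversed. Most of the 37 were not called in the main fit and had no call to lose, so the 471 do not measure how stable the calls were. The call of *Nfkb2* in the genotype difference of the 18 h against 6 h change was lost in 12 of 18 refits. That of *Relb* between genotypes at 18 h was lost in 8 of 13, as was that of *Icam1* between 18 h and 6 h in wild-type glands. For the 83 member results outside the 37, 86 of 1152 refits reversed the sign. The calls of *Relb* and *Nfkb2* between 18 h and 6 h in wild-type glands, and of *Relb* in the genotype difference of that change, held in every refit run. Of the 10 members, counts called moved as follows. For GLP-1R-/- against wild-type glands at 6 h the count was 1, and 0 with no filter and with the fit restricted to the groups compared. At 18 h it was 1, and 0 with no filter, 0 with arrays centred on their median, 5 with array weights and 2 with the fit restricted to the groups compared. For wild-type glands at 6 h against untreated it was 2, and 0 with the fit restricted to the groups compared. At 18 h against untreated it was 0, and 1 with array weights. For the genotype difference in the 18 h against 6 h change it was 2, and 1 with no filter, 6 with array weights and 1 with the fit restricted to the groups compared. With single arrays left out, these counts ranged over 0 to 1, 0 to 3, 0 to 3, 0 to 0 and 1 to 2, in the order given, and over 2 to 5 for wild-type glands between 18 h and 6 h. There the count was 5, and 7 with array weights and 4 each with centring, the trended robust prior and the restricted fit. The cause was not tested. Array weights gave replicate 13 a weight of 0.084.

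Over all tested genes the counts called also moved. Array weights called 2293 genes in place of 775 between genotypes at 6 h, 1589 in place of 162 at 18 h and 177 in place of 79 in untreated glands. In wild-type glands they called 1243 in place of 433 at 6 h, 212 in place of 25 at 18 h and 3423 in place of 1389 between the times. In GLP-1R-/- glands they called 22 in place of 0 at 18 h and 455 in place of 0 between the times. For genotype differences in change they called 284 in place of 48 at 6 h, 19 in place of 3 at 18 h and 1512 in place of 197 from 6 h to 18 h. The restricted fit called 98 between genotypes at 6 h and 347 at 18 h. It called 4 in wild-type glands at 18 h against untreated. For genotype differences in change it called 12 at 6 h, 2 at 18 h and 108 from 6 h to 18 h. Centring called 72 for the genotype difference in the 6 h change. No paired analysis was possible because no replicate number occurs in more than 1 group. RMA values hold no background level, so what signal over background limits was not analysed here.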
